A study of Mus musculus with 9 samples.

Results

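The complement genes C1ra, C1s1, C2, C3, C4b, Cfb, Cfi and Serping1 were examined in cultured adipose-derived stem cells (ASCs) of C57BL/6 mice. These 8 genes were chosen by name from the 54532 genes of the count table. The cells came from subcutaneous (Sub-ASCs), abdominal (Ab-ASCs) and perivascular adipose tissue (PVASCs), with 3 libraries per group and 9 in all. They were grown in stem cell medium, had no transgene or treatment named in the labels, and were harvested between passages 3 and 6 for sequencing of mRNA. The sex and age of the mice are not given in the sources used here, and neither is whether the libraries of a group came from separate animals or cultures. The p-values therefore measure only the spread between these libraries, which may be technical. The comparisons ask how ASCs from the 3 depots differ.

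Complement is a cascade of plasma proteins that tags microbes and damaged cells. In the classical pathway, C1q binds to a surface and activates the proteases C1r and C1s, which cleave C4 and C2. The fragments form a convertase that cleaves C3, the protein on which all pathways converge. In the alternative pathway, factor B takes the place of C2 and amplifies C3 cleavage. C1 inhibitor, encoded by Serping1, blocks C1r and C1s, and factor I inactivates the products of C3 and C4 with the help of cofactors. The liver makes most of these proteins, and fibroblasts and adipose stromal cells are known to make several of them as well.

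The genes lie on 4 chromosomes of GRCm38, with positions as listed in the count table. C1ra (chr6:124512405-124523443, plus strand) and C1s1 (chr6:124530345-124542359, minus strand) are neighbours. C4b (chr17:34728380-34743882), Cfb (chr17:34856374-34862518) and C2 (chr17:34862604-34898265) lie on the minus strand of the class III region of the major histocompatibility complex. C3 (chr17:57203970-57228136, minus strand) is farther along the same chromosome. Serping1 (chr2:84765387-84775444, minus strand) and Cfi (chr3:129835884-129875332, plus strand) stand alone. All are protein-coding genes, and reads were counted over each gene.

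Promoters are shown because these genes differed in the same direction between groups. RefSeq windows on GRCm38.p6 were matched for 3 of the 8 genes, C1ra, C1s1 and C3. Each holds 250 bases before and 50 bases after a transcription start, read 5′ to 3′ on the strand of the gene. Capitals mark matches on either strand to the gamma-interferon activated site core TTCNNNGAA or the C/EBP consensus TTNNGNAAT. The windows are chr6:124512371-124512670 (plus strand) for C1ra, chr6:124542310-124542609 (minus strand) for C1s1 and chr17:57228087-57228386 (minus strand) for C3.
C1ra: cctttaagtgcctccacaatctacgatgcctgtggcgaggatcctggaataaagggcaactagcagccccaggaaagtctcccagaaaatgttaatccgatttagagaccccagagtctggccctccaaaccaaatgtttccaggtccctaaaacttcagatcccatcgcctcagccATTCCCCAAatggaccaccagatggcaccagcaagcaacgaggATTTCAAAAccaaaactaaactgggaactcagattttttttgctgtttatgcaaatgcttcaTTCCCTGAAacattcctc
C1s1: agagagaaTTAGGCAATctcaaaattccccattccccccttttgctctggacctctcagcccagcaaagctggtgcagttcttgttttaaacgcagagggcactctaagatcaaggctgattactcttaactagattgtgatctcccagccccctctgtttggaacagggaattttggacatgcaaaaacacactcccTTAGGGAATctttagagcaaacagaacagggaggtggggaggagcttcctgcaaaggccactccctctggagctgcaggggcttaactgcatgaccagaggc
C3: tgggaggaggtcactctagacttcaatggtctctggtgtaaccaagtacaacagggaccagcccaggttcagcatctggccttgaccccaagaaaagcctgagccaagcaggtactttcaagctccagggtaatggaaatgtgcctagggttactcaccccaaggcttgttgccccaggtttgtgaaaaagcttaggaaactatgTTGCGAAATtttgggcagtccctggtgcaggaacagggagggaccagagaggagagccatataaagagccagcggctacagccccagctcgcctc
The C/EBP consensus was matched at -45 from the start in C3, at -242 and -52 in C1s1, and at -73 and -30 in C1ra. The C1ra window also held the activated site core at 33. The C1ra gene is listed from 124512405, before the RefSeq start used here, so all of these C1ra matches lie within the listed gene. No matched stretches overlapped. Of all 32851 windows of this length, 11.5% held the C/EBP consensus and 8.3% the activated site core. The interferon-stimulated response element core GAAANNGAA, present in 8.56% of windows, and the NF-kB consensus, present in 4.51%, were not matched in these windows. A second RefSeq start of C1s1 gave an overlapping window with 1 of its matches. These are matches of letters only. No promoter window is shown for C2, C4b, Cfb, Cfi or Serping1.

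Reads counted per library ranged from 20524173 to 29881036. Ab-ASC replicate 1 stood apart from the other Ab-ASC libraries, with a chi-square per degree of freedom of 27.6 and 17.4 against them, where all other pairs within a group were at 2.87 to 7.97. Levels are given in CPM, the reads of a gene relative to all reads of the library, with library sizes scaled by edgeR's TMM method. A limit of 3 reads, used as the smallest measurable count, equals 0.0916 to 0.161 CPM depending on the library, and covers counting error only. All 8 genes were among the 16526 genes kept by the low-count filter and tested. Cfi passed this filter only through the Sub-ASC libraries, so its being higher there was fixed by the filter. Differences were tested with the quasi-likelihood F-test of edgeR, and p-values were adjusted over all tested genes by the Benjamini-Hochberg method and read at a threshold of 0.05. Folds are given with 95% intervals from the same fit. In these bulk samples, fewer cells expressing a gene and less RNA per cell cannot be told apart.

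All 8 genes were higher in Sub-ASCs than in each of the other groups. Relative to Sub-ASCs, their median log2 difference was -6.21 in PVASCs and -4.86 in Ab-ASCs. Between PVASCs and Ab-ASCs, 7 genes were lower in PVASCs and Cfi did not pass the test. The depots differed widely across the transcriptome. Of all tested genes, relative to Sub-ASCs, 35.7% were lower and 34.7% higher in PVASCs, and 38.3% were lower and 37% higher in Ab-ASCs. In PVASCs, 32.1% were lower and 24.7% higher than in Ab-ASCs. Of all tested genes, 28.7% were higher in Sub-ASCs than in both other groups. The median over all tested genes was -0.01, -0.03 and -0.06 (log2) for PVASCs against Sub-ASCs, Ab-ASCs against Sub-ASCs and PVASCs against Ab-ASCs, whereas the median of the 8 genes in the last comparison was -1.11. The 3 comparisons share libraries with each other.

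**Figure D1:**
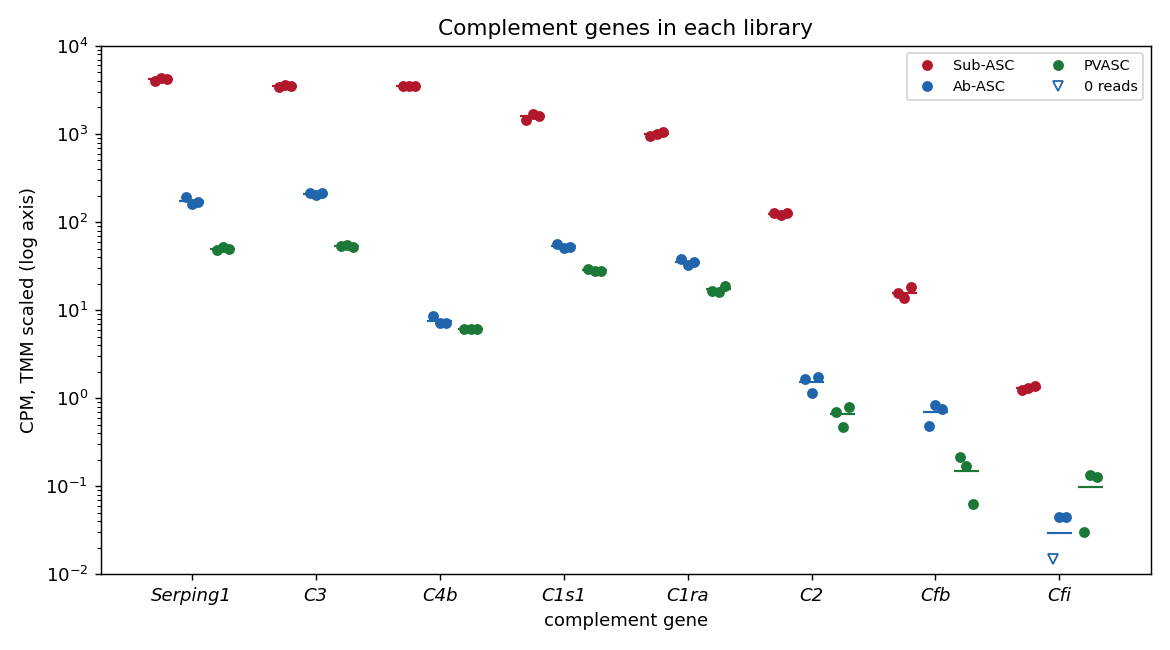
TMM-scaled CPM (log axis) of the 8 complement genes in each of the 9 libraries, with a point for each library and a line at the mean of each group. Sub-ASC libraries lie above all others for each gene, from 1.24 CPM or more for Cfi to 4353 CPM for Serping1. The Ab-ASC library without a Cfi read is drawn as an open triangle near the foot of the axis, not to scale.

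The C1 proteases were abundant in Sub-ASCs. C1ra, the C1r protease that C1q activates first, was at 939, 993 and 1040.1 CPM in the Sub-ASC libraries, at 37.6, 32.9 and 34.9 CPM in Ab-ASCs and at 16.6, 16.2 and 18.8 CPM in PVASCs. C1s1, the protease that C1r activates, was at 1455, 1701 and 1608 CPM in Sub-ASCs, at 55.8, 51.2 and 51.8 CPM in Ab-ASCs and at 29.2, 28.1 and 27.9 CPM in PVASCs. For both genes the groups did not overlap, and the order was Sub-ASCs, Ab-ASCs, PVASCs. C1ra was 57.5-fold higher in Sub-ASCs than in PVASCs (50.7 to 65.3, adjusted p = 3.83e-14) and 28.2-fold higher than in Ab-ASCs (25.0 to 31.8, adjusted p = 9.16e-14). The folds of C1s1 were close to these, at 55.9 (49.9 to 62.6) and 30.01 (26.9 to 33.5), with adjusted p = 1.96e-14 and 3.88e-14. Ab-ASCs exceeded PVASCs by 2.04-fold for C1ra (1.82 to 2.28, adjusted p = 2.92e-07) and by 1.86-fold for C1s1 (1.69 to 2.06, adjusted p = 2.83e-07).

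C4b and C2, which together supply the classical C3 convertase, showed larger folds. C4b encodes C4, the thioester protein that is attached to surfaces. It was at 3504, 3475 and 3542 CPM in Sub-ASCs, at 8.53, 7.06 and 7.08 CPM in Ab-ASCs and at 6.17, 6.10 and 6.07 CPM in PVASCs. Its level was high and even in the Sub-ASC libraries and low in the 6 others. Sub-ASCs exceeded PVASCs by 573-fold (509.6 to 645, adjusted p = 2.41e-15) and Ab-ASCs by 466-fold (414 to 524, adjusted p = 4.48e-15). Among the 8 genes, C4b had the largest fold in both comparisons with Sub-ASCs. The Ab-ASC and PVASC libraries did not overlap for C4b, but the fold between them was only 1.23 (1.10 to 1.38, adjusted p = 0.00484). This call was lost without Ab-ASC replicate 1, the highest of the Ab-ASC libraries (adjusted p = 0.0651), and when only the groups compared were fitted (adjusted p = 0.0886). C2, the protease of that convertase, was at 127, 119 and 126 CPM in Sub-ASCs, at 1.66, 1.16 and 1.74 CPM in Ab-ASCs and at 0.70, 0.47 and 0.79 CPM in PVASCs. The groups of C2 did not overlap, and the counts in Ab-ASCs and PVASCs were 14 to 39 reads per library. C2 was 186-fold higher in Sub-ASCs than in PVASCs (153 to 226.5, adjusted p = 1.1e-13) and 81.9-fold higher than in Ab-ASCs (68.2 to 98.3, adjusted p = 2.58e-13). Ab-ASCs exceeded PVASCs by 2.28-fold (1.65 to 3.15, adjusted p = 5.38e-04).

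C3, the shared substrate of the convertases, was at 3412, 3556 and 3491 CPM in Sub-ASCs, at 215, 203 and 214 CPM in Ab-ASCs and at 53.5, 54.2 and 51.6 CPM in PVASCs. The groups were widely apart and the libraries within each differed little. Sub-ASCs exceeded PVASCs by 65.6-fold (60.4 to 71.3, adjusted p = 2.41e-15) and Ab-ASCs by 16.5-fold (15.3 to 17.8, adjusted p = 1.08e-14). The 3.97-fold difference between Ab-ASCs and PVASCs (3.70 to 4.26, adjusted p = 1.66e-11) was far larger than that of C4b. Cfb, which encodes factor B of the alternative convertase, was at 15.6, 13.6 and 18.1 CPM in Sub-ASCs, at 0.48, 0.84 and 0.76 CPM in Ab-ASCs and at 0.21, 0.17 and 0.06 CPM in PVASCs. The PVASC libraries held 7, 5 and 2 reads, near the measurable limit, and the groups did not overlap. Cfb was 102.5-fold higher in Sub-ASCs than in PVASCs (70.5 to 149, adjusted p = 9.9e-11), 22.2-fold higher than in Ab-ASCs (16.3 to 30.3, adjusted p = 8.17e-10) and 4.61-fold higher in Ab-ASCs than in PVASCs (2.35 to 9.05, adjusted p = 0.00109).

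Of the 2 soluble regulators, Serping1 was high and Cfi was barely measured. Serping1, the inhibitor of C1r and C1s, was at 4048, 4353 and 4158 CPM in Sub-ASCs, at 195, 159 and 167 CPM in Ab-ASCs and at 48.6, 52.3 and 49.2 CPM in PVASCs. The groups did not overlap. Sub-ASCs exceeded PVASCs by 83.7-fold (73.5 to 95.4, adjusted p = 2.71e-14) and Ab-ASCs by 24.1-fold (21.4 to 27.2, adjusted p = 1.25e-13). Ab-ASCs were 3.47-fold above PVASCs (3.11 to 3.87, adjusted p = 1.29e-09). Cfi, the protease factor I, had 29, 33 and 36 reads in Sub-ASCs (1.24, 1.30 and 1.37 CPM), 0, 1 and 1 reads in Ab-ASCs and 1, 4 and 4 reads in PVASCs. Sub-ASCs were separate from the other groups, which overlapped. Cfi was 13.0-fold higher in Sub-ASCs than in PVASCs (6.98 to 24.1, adjusted p = 3.73e-06). Against Ab-ASCs, 98 reads stood against 2, a scaled ratio of 41.5 with a 95% counting interval of 11.2 to 348 (edgeR adjusted p = 2.59e-06). The log2 difference between PVASCs and Ab-ASCs was 1.48 with an interval of -0.60 to 3.55 (adjusted p = 0.167), so that neither direction could be told at this depth.

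**Figure D2:**
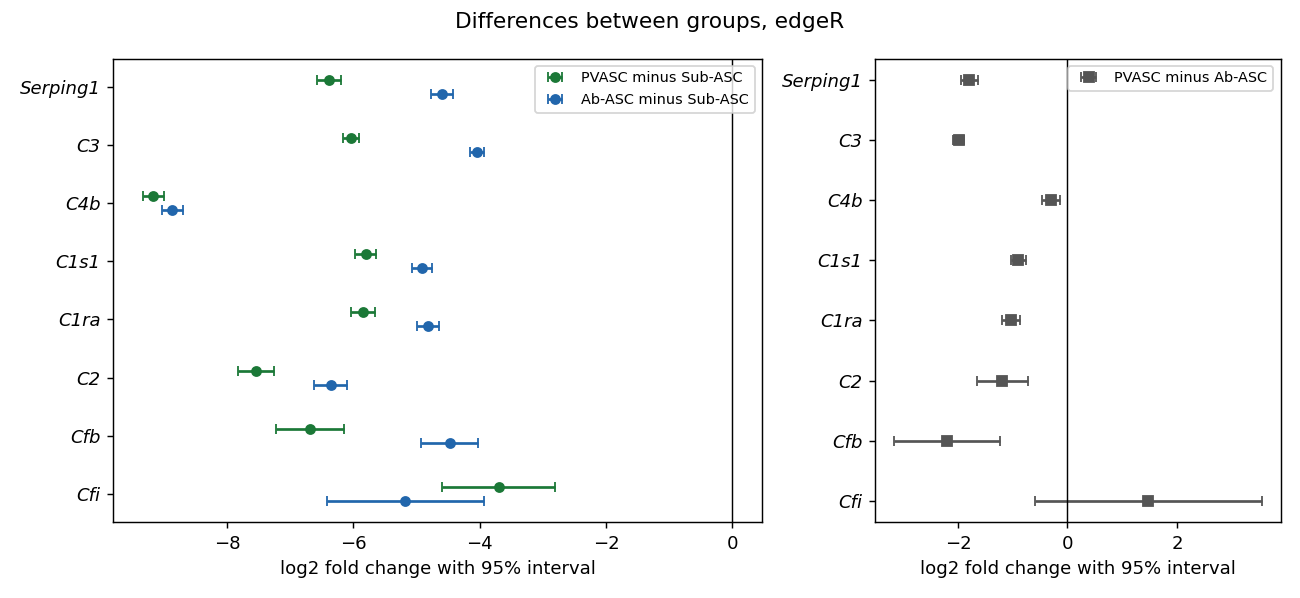
Log2 fold changes from edgeR with 95% intervals, for PVASCs and Ab-ASCs minus Sub-ASCs (left) and for PVASCs minus Ab-ASCs (right). C4b lies farthest from 0 on the left, at -9.16 and -8.86, and closest to 0 among the called genes on the right, at -0.30. Only the interval of Cfi on the right spans 0.

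To compare levels between genes, CPM was divided by gene length in kilobases (FPKM). In Sub-ASCs the order was Serping1 at 1801 ± 66.4 FPKM, C3 at 678 ± 14.0, C4b at 616 ± 5.93, C1s1 at 507 ± 39.6, C1ra at 332 ± 17.03, C2 at 32.1 ± 1.06, Cfb at 5.59 ± 0.80 and Cfi at 0.59 ± 0.029 FPKM (SD, n = 3). No neighbours in this order overlapped. By mean FPKM in Sub-ASCs, Serping1 ranked 8, C3 38, C4b 43, C1s1 62 and C1ra 121 among the 16526 tested genes. In Ab-ASCs, Serping1 at 74.6 ± 8.01, C3 at 41.0 ± 1.37, C1s1 at 16.9 ± 0.80 and C1ra at 11.8 ± 0.80 FPKM came before C4b at 1.33 ± 0.15 FPKM, and C2 and Cfb overlapped. The order of the first 5 genes was the same in PVASCs, where Serping1 was at 21.5 ± 0.85, C3 at 10.3 ± 0.26 and C4b at 1.07 ± 0.0091 FPKM, and Cfb and Cfi overlapped. C4b thus came after C3 in Sub-ASCs and after C1ra in the other groups, and its rank among all tested genes was 43 in Sub-ASCs, 10663 in Ab-ASCs and 11556 in PVASCs.

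The make-up of complement mRNA therefore differed as well as its amount. The 8 genes took 1.32% to 1.39% of all counted reads in Sub-ASC libraries, 0.0434% to 0.0467% in Ab-ASCs and 0.0169% to 0.0172% in PVASCs. Serping1 made up 45.3% ± 0.50 of their summed FPKM in Sub-ASCs, 50.9% ± 1.73 in Ab-ASCs and 44.8% ± 1.17 in PVASCs (SD, n = 3). The share of C4b was 15.5% ± 0.55 in Sub-ASCs, 0.91% ± 0.041 in Ab-ASCs and 2.24% ± 0.042 in PVASCs. The share of C3 was lowest in Sub-ASCs, at 17.1% ± 0.19, against 28.1% ± 1.39 in Ab-ASCs and 21.5% ± 0.45 in PVASCs. As a ratio of FPKM values, C4b to C3 was 0.91 ± 0.023 in Sub-ASCs, 0.032 ± 0.0031 in Ab-ASCs and 0.10 ± 0.0023 in PVASCs, and the ranges did not overlap. The ratio of C1s1 to C1ra overlapped in all groups, at 1.47 to 1.63 in Sub-ASCs, 1.41 to 1.48 in Ab-ASCs and 1.41 to 1.68 in PVASCs. Serping1 exceeded C1s1, one of its targets, by 3.56-fold ± 0.16 in Sub-ASCs, 4.40-fold ± 0.26 in Ab-ASCs and 2.37-fold ± 0.13 in PVASCs.

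**Figure D3:**
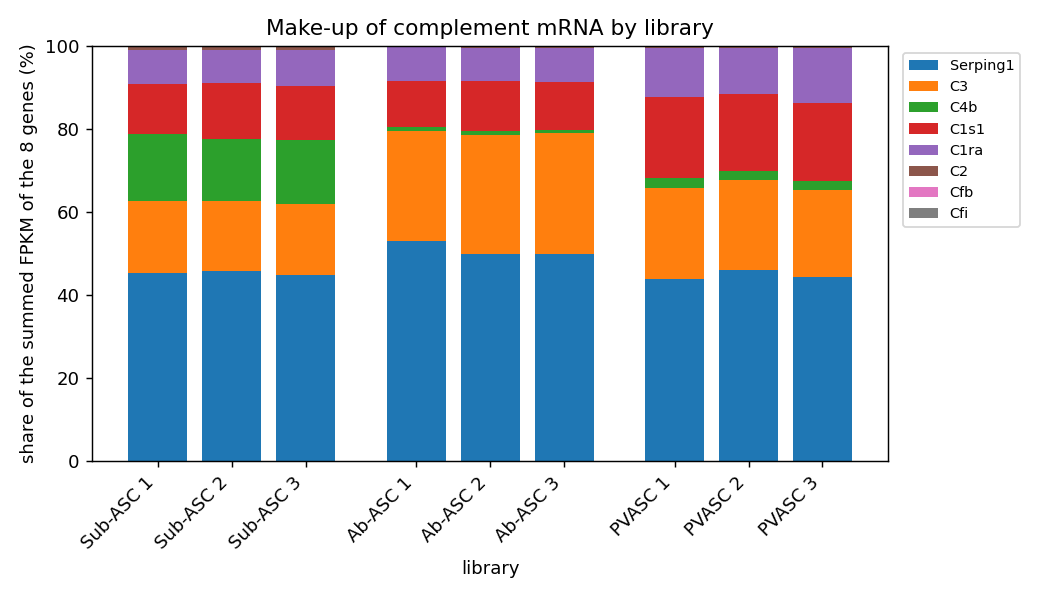
Share of each gene in the summed FPKM of the 8 genes (%, stacked to 100) in each of the 9 libraries. C4b takes a mean of 15.5% in Sub-ASCs and of 0.91% and 2.24% in Ab-ASCs and PVASCs, and Serping1 takes the largest share in all libraries.

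Part of the sequence of some of these genes also occurs in near copies, which could split their reads. Of the 100-base windows of the longest transcript, 34.5% of C1ra occurred unchanged in C1rb, 7.9% of C1s1 in C1s2 and 16.5% of C4b in C4a. No window of C3, Cfi or Serping1 occurred in another gene. Like the genes they resemble, the copies were higher in Sub-ASCs than in both other groups. C1rb was at a mean of 39.8 CPM in Sub-ASCs, 0.83 in Ab-ASCs and 0.44 in PVASCs, C1s2 at 115, 1.71 and 0.87 CPM, and C4a at 64.9, 0.76 and 0.68 CPM. C4a varied among the Sub-ASC libraries, at 40.9, 85.5 and 68.4 CPM. With the reads of each copy added to its gene, C4b differed by -9.04 (log2) between PVASCs and Sub-ASCs and by -8.75 between Ab-ASCs and Sub-ASCs, and no call for the 8 genes was lost.

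Cfb and C2 also share exons with Gm20547 (chr17:34856412-34882042), annotated on the same strand. The shared part covers 79.5% of the exonic bases of Cfb and 42.8% of those of C2, and Gm20547 had 0 reads in all 9 libraries. Whether reads in shared exons were counted is not given in the sources used here. Divided by the exonic bases outside any overlap alone, 579 in Cfb and 2055 in C2, the Sub-ASC level was 27.3 ± 3.90 FPKM for Cfb and 60.4 ± 2.004 FPKM for C2, so their levels relative to other genes are uncertain. C1s1 overlaps the antisense gene Gm16567 over 18.4% of its exonic bases, and that gene had 0 reads. The folds between groups use the same length in each library.

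Other genes around C4b, Cfb and C2 were looked up after the values had been seen. Tnxb (tenascin XB), beside C4b, fell by 5.28 in PVASCs and by 4.58 in Ab-ASCs on the log2 scale relative to Sub-ASCs. Between C4a and Cfb, the log2 differences in PVASCs were -0.34 for Stk19, -0.43 for Dxo, -0.61 for Skiv2l and 0.38 for Nelfe. In Ab-ASCs they were 0.09, -0.29, -0.56 and 0.88. Zbtb12, which overlaps C2 on the opposite strand, differed by 0.08 in PVASCs (adjusted p = 0.507) and -0.36 in Ab-ASCs (adjusted p = 0.00863). Large folds thus stood at C4b, C4a, Tnxb, Cfb and C2, and smaller differences at the genes between them. On chromosome 6, C1rl, which lies next to C1ra, fell by 0.87 in PVASCs and by 0.82 in Ab-ASCs.

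**Figure D4:**
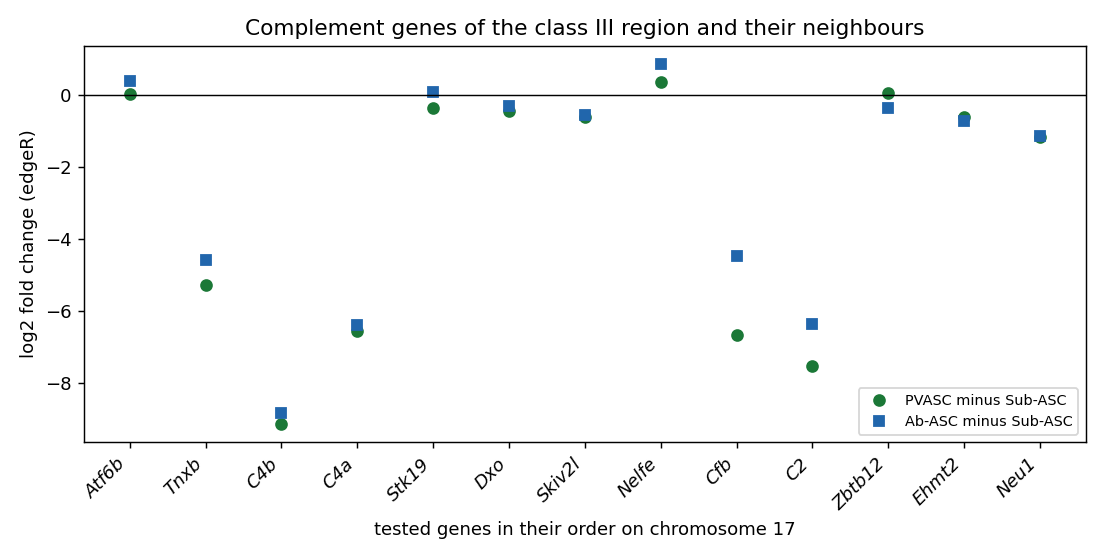
Log2 fold changes of the tested genes around C4b, Cfb and C2 in their order on chromosome 17, for PVASCs and Ab-ASCs minus Sub-ASCs. Tnxb, C4b, C4a, Cfb and C2 lie between -9.16 and -4.47, and the other genes between -1.15 and 0.88.

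The rest of the cascade was described with a list of 56 complement genes that includes the 8. Of these, 43 were tested, 13 were not, and Mbl1 and C8b had no read. Of the tested genes, 5 passed the low-count filter only through Sub-ASCs and had to be lower elsewhere (Cfi, Cfd, C6, C7 and Vtn). C4bp and Vsig4 passed it only through PVASCs and had to be higher there. Calls of these genes in those directions were fixed by the filter and are included in the counts below. In PVASCs against Sub-ASCs, 33 of the 43 genes were lower, 5 higher and 5 not called. This is 76.7% lower and 11.6% higher, beside 35.7% and 34.7% of all tested genes. In Ab-ASCs against Sub-ASCs, 36 were lower, 5 higher and 2 not called, which is 83.7% lower and 11.6% higher beside 38.3% and 37%. In PVASCs against Ab-ASCs, 17 were lower, 11 higher and 15 not called. These shares, 39.5% lower and 25.6% higher, lie near the 32.1% and 24.7% of all tested genes, and the balance turned to 6 lower and 9 higher with a cutoff of 1 on the absolute log2 fold change. Without the 8 genes, 35 were tested. In PVASCs against Sub-ASCs, 25 of these were lower and 5 higher, with a median log2 difference of -1. For Ab-ASCs against Sub-ASCs the numbers were 28 and 5, with a median of -0.89, and for PVASCs against Ab-ASCs they were 10 and 11, with a median of -0.04. Across these 35 genes the median differences were thus much smaller than those of the 8 genes.

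Among the 11 tested initiators of the classical and lectin pathways, 10 were lower in PVASCs and in Ab-ASCs than in Sub-ASCs. This is 90.9% in each group, beside 35.7% of all tested genes in PVASCs and 38.3% in Ab-ASCs. C1qa, C1qb and C1qc, the chains of C1q, were at 21.9, 32.3 and 24.6 CPM in Sub-ASCs, at 12.6, 12.1 and 9.84 CPM in Ab-ASCs and at 7.79, 16.6 and 11.3 CPM in PVASCs. C1qa fell by 1.49 in PVASCs on the log2 scale, far less than the 5.85 of C1ra. Masp1, a protease of the lectin pathway, differed from the C1 proteases in its order, at 151, 161 and 153 CPM in Sub-ASCs, 0.48, 0.36 and 0.49 CPM in Ab-ASCs and 26.3, 27.3 and 25.7 CPM in PVASCs. It was 349-fold higher in Sub-ASCs than in Ab-ASCs (299 to 407, adjusted p = 1.08e-14) and 59.4-fold higher in PVASCs than in Ab-ASCs (adjusted p = 3.47e-12). The scavenger receptor collectin Colec12 was at 377, 262 and 251 CPM in Sub-ASCs, Ab-ASCs and PVASCs.

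All 7 convertase genes were lower in PVASCs and in Ab-ASCs than in Sub-ASCs, beside 35.7% and 38.3% of all tested genes. Besides C4b, C2, C3, Cfb and C4a, these were Cfd, the protease factor D that cleaves factor B, at 1.27, 0.05 and 0.10 CPM in Sub-ASCs, Ab-ASCs and PVASCs, and Cfp, encoding properdin, at 11.2, 7.71 and 6.40 CPM. Cfd had 96 reads in Sub-ASCs and 3 in Ab-ASCs, a scaled ratio of 27.1 with a counting interval of 9.01 to 134. The 4 tested terminal pathway genes were lower in both groups as well, beside the same shares of all tested genes. Of these, C6 and C7 passed the low-count filter only through Sub-ASCs, as did Cfd and Vtn among the other listed genes, and so had to be lower elsewhere. Hc and C8g also passed it through other groups, and between PVASCs and Ab-ASCs the adjusted p-values of the 4 genes were 0.218 to 1. Hc, encoding C5, was at 12.1, 1.07 and 1.22 CPM and C7 at 16.2, 0.14 and 0.06 CPM in the same order of groups. C6 had 12, 19 and 23 reads in Sub-ASCs and none in the other libraries, so that Sub-ASCs were at least 7.41-fold higher than PVASCs. The bound against Ab-ASCs was at least 4.99-fold higher, both set against 3 reads per library. C8g was at 1.86, 1.17 and 0.89 CPM.

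The soluble regulators were mixed. Of the 6 tested, Serping1 and Cfi included, 4 were lower, 1 was higher and 1 was not called in PVASCs against Sub-ASCs. In Ab-ASCs, 5 were lower and 1 higher. This is 66.7% lower and 16.7% higher in PVASCs, beside 35.7% and 34.7% of all tested genes. In Ab-ASCs it is 83.3% and 16.7%, beside 38.3% and 37%. Cfi and Vtn passed the low-count filter only through Sub-ASCs and had to be lower elsewhere. The gene higher in PVASCs, C4bp, passed it only through PVASCs, so that direction was fixed as well. Clu (clusterin) was at 106, 49.2 and 97.5 CPM in Sub-ASCs, Ab-ASCs and PVASCs. Its fold between Sub-ASCs and PVASCs was 1.09 (0.97 to 1.22, adjusted p = 0.175). Vtn (vitronectin), an inhibitor of the terminal complex, had 858 reads in Sub-ASCs and 3 in PVASCs, a scaled ratio of 357 with a counting interval of 122 to 1740.

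Membrane regulators protect the cells that carry them. Of the 7 tested, 3 were lower, 1 higher and 3 not called in PVASCs against Sub-ASCs, and the 42.9% lower lies near the 35.7% of all tested genes. In Ab-ASCs against Sub-ASCs, 5 were lower, 1 higher and 1 not called, which is 71.4% lower beside 38.3%. Cd55 (decay-accelerating factor) was at 56.6 ± 3.21 CPM in Sub-ASCs, 23.4 ± 2.79 in Ab-ASCs and 57.0 ± 2.52 in PVASCs (SD, n = 3). Between Sub-ASCs and PVASCs its fold was 0.99 (0.88 to 1.12, adjusted p = 0.916). Cd59a, an inhibitor of the membrane attack complex, was lowest in Sub-ASCs, at 3.48 ± 0.28 CPM in Sub-ASCs, 22.7 ± 2.08 in Ab-ASCs and 19.0 ± 2.16 in PVASCs. Relative to Sub-ASCs it was 5.45-fold higher in PVASCs (adjusted p = 1.65e-09) and 6.50-fold higher in Ab-ASCs (adjusted p = 6.53e-10). Cr1l (Crry), which acts on C3 and C4 fragments, was at 93.8, 61.8 and 45.7 CPM in Sub-ASCs, Ab-ASCs and PVASCs. Csmd1 was at 6.83, 0.45 and 7.06 CPM and Cd46 at 1.57, 0.37 and 0.79 CPM.

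Of the 8 tested receptors, 5 were lower and 2 higher in PVASCs relative to Sub-ASCs, and the same numbers held for Ab-ASCs. This is 62.5% lower and 25% higher, beside 35.7% and 34.7% of all tested genes in PVASCs and 38.3% and 37% in Ab-ASCs. Vsig4, counted as higher in both groups, passed the low-count filter only through PVASCs. Its direction in PVASCs against Sub-ASCs was therefore fixed by the filter. C3ar1 and C5ar1, receptors of the C3 and C5 fragments, were at 23.9 and 7.07 CPM in Sub-ASCs, 17.7 and 9.23 CPM in Ab-ASCs and 11.9 and 4.97 CPM in PVASCs. The integrin genes Itgam, Itgax and Itgb2, which form complement receptors of leukocytes, were at 5.09, 4.80 and 19.5 CPM in Sub-ASCs and were lower in both other groups. Cd93 was higher in PVASCs, at 68.2 CPM, than in Sub-ASCs (31.1 CPM, adjusted p = 7.44e-09) and Ab-ASCs (20.1 CPM, adjusted p = 9.33e-10).

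**Figure D5:**
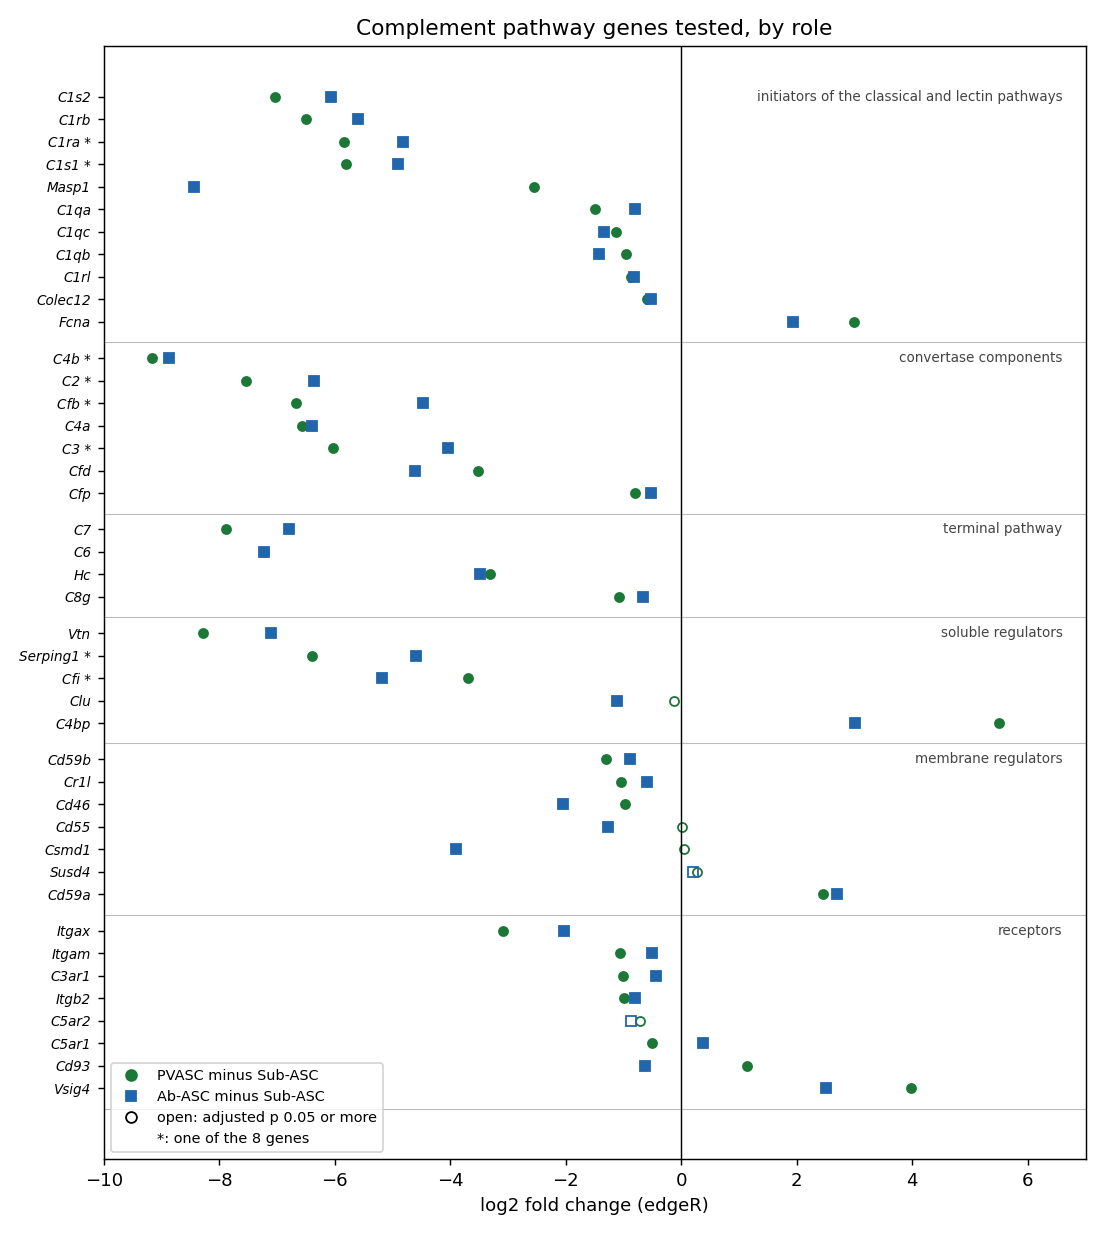
Log2 fold changes of tested complement genes by role, for PVASCs minus Sub-ASCs (circles) and Ab-ASCs minus Sub-ASCs (squares), with open symbols where the adjusted p was 0.05 or more and an asterisk at the 8 genes. Both C6 symbols coincide at -7.22, a fitted value that depends on the prior count because these groups had no C6 read. Masp1 shows the widest gap between both comparisons, at -2.55 and -8.45.

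Likeness of pattern was measured as the root mean square difference of centred log2 CPM over the 9 libraries. C1ra and C1s1 were each other's closest gene among all tested, at 0.0955, followed for both by Pitx1 and Fxyd1. Pitx1 was at 0.062 CPM in Ab-ASCs and 0 in PVASCs, so its value depends on the prior count of 2 used for log2 CPM. C3 was closest to Cadm3 (0.13), Nfasc (0.21) and Serping1 (0.24). C3 (0.24) and H2-Q4 (0.25) were among the 3 genes nearest to Serping1, and Dcn (0.32) and C3 (0.36) among the 3 nearest to Cfb. The nearest genes of C4b were Ggt5 (0.17), Cma1 (0.32) and Gbp11 (0.33). Cma1 was at 0.048 CPM in Ab-ASCs and 0 in PVASCs and Gbp11 at 0 in both, so that their values also depend on the prior count. The nearest genes of C2 were Adamts15 (0.27), Cyp7b1 (0.28) and Calhm6 (0.30). Cfi was closest to Reps2 (0.22), Oas1b (0.23) and Gstt2 (0.23). Cfi had 0, 1 and 1 reads in Ab-ASCs and 1, 4 and 4 in PVASCs, so its likeness also depends on the prior count. The same holds for Cfb in PVASCs, at 7, 5 and 2 reads. With 3 groups of 3 libraries, the measure mostly compares group levels.

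Marker lists were read beside these results. The 10 stromal markers were present in all groups, with a summed level of 32150 to 32742 CPM in Sub-ASCs, 12163 to 12582 in Ab-ASCs and 7932 to 8255 in PVASCs, and 8 of 10 were lower in each of the latter groups than in Sub-ASCs. All 12 interferon response genes were lower in PVASCs and in Ab-ASCs than in Sub-ASCs, with sums of 3035 to 3157 CPM in Sub-ASCs, 162 to 183 in Ab-ASCs and 161 to 162 in PVASCs. The 10 acute-phase and NF-kB genes summed to 10033 to 13019 CPM in Sub-ASCs, 1272 to 1325 in Ab-ASCs and 567 to 609 in PVASCs, with 8 lower and 1 higher in PVASCs and 5 lower and 4 higher in Ab-ASCs, both against Sub-ASCs. Saa3 (serum amyloid A3) made up most of this sum in Sub-ASCs, at a mean of 10046 CPM against 48.6 in Ab-ASCs and 12.8 in PVASCs. The other 9 genes summed to a mean of 1946, 1246 and 579 CPM in Sub-ASCs, Ab-ASCs and PVASCs. Il6, Nfkb2, Tnfaip3 and Relb were higher in Ab-ASCs than in Sub-ASCs. Relative to Sub-ASCs, 100% of the interferon list and 80% of the stromal list were lower in each group. Of the acute-phase list, 80% were lower and 10% higher in PVASCs, and 50% and 40% in Ab-ASCs. Among all tested genes these shares were 35.7% and 34.7% in PVASCs and 38.3% and 37% in Ab-ASCs. The acute-phase list in Ab-ASCs thus lay near the shares of all tested genes. Between PVASCs and Ab-ASCs, 6 interferon genes were higher and 3 lower in PVASCs (median log2 difference 0.41), and 9 acute-phase genes were lower and 1 higher (median -0.94), where 7 of the 8 complement genes were lower. Of all tested genes in this comparison, 24.7% were higher and 32.1% lower. The interferon list stood at 50% and 25%, and the acute-phase list at 10% and 90%. The part of any of these lists in the complement levels was not tested.

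Macrophages, which also express complement genes, were followed by 10 markers, none at 0 in any group. Their sum was 318 to 321 CPM in Sub-ASCs, 338 to 431 in Ab-ASCs and 325 to 336 in PVASCs, and 8 of 10 were lower and 2 higher in PVASCs and in Ab-ASCs than in Sub-ASCs. This is 80% lower and 20% higher, beside 35.7% and 34.7% of all tested genes in PVASCs and 38.3% and 37% in Ab-ASCs. Lyz2 alone was at a mean of 162 CPM in Sub-ASCs, 271 in Ab-ASCs and 248.9 in PVASCs. Without it, the other 9 markers summed to 154 to 159 CPM in Sub-ASCs, 100.4 to 114 in Ab-ASCs and 79.2 to 84.6 in PVASCs, and were thus highest in Sub-ASCs. Their part in the complement levels was not tested. Of 10 mesothelial markers, 9 were tested, 8 were higher in PVASCs (not Krt8) and 8 in Ab-ASCs (not Gpm6a) relative to Sub-ASCs, and Lrrn4 and Muc16 were at 0 in Sub-ASCs, with sums of 3.16 to 3.26 CPM in Sub-ASCs, 113 to 119 in Ab-ASCs and 41.7 to 43.6 in PVASCs. Of 8 endothelial markers, 7 were higher in PVASCs and 7 lower in Ab-ASCs, with sums of 207 to 219, 96.4 to 98.4 and 891 to 896 CPM in Sub-ASCs, Ab-ASCs and PVASCs. All 10 proliferation markers were higher in both groups than in Sub-ASCs, with sums of 153 to 156, 1028 to 1066 and 914 to 930 CPM in the same order. The mesothelial, endothelial and proliferation counts stand beside the same shares of all tested genes. The part of these differences in the complement levels was not tested.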

How the data were processed

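Raw read counts per gene were deposited by the authors for 9 libraries, with each gene's length and position as further columns, and neither normalization nor filtering was applied. Total RNA was prepared with Trizol and libraries with a NEBNext Ultra kit, per the labels. The submitters' processing notes list CASAVA 1.8, Bowtie 0.12.2, featureCounts 1.5.0-p3 and the builds mm8 and mm10 without their roles. The strand setting of counting is not given in the sources used here. Listed positions were those of GENCODE M21 on GRCm38 for 53585 genes (98.3%).

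Groups followed the tissue label. Counts were tested with edgeR 4.0.16 (limma 3.58.1, R 4.3.3) after filterByExpr with a minimum count of 10 and TMM, with all 9 libraries in 1 fit, the quasi-likelihood F-test and Benjamini-Hochberg adjustment over 16526 genes. This procedure was tested on simulated data. CPM and FPKM were calculated from these counts, TMM library sizes and listed lengths. Likeness used log2 CPM with a prior count of 2. Depth was 20524173 to 29881036 reads. No 2 libraries of a group agreed within sampling noise.

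The 8 genes and all gene lists (56 complement genes by role, and stromal, macrophage, mesothelial, endothelial, proliferation, interferon and acute-phase markers) were chosen with earlier results of these data known. Named with values were the 8 genes, list genes of at least 1 CPM in a group, near copies of the 8, overlapping genes and the 3 genes closest in pattern. A few genes that this rule names are not reported here. Neighbours on chromosomes 6 and 17 and list genes below that level with values were chosen after their values were seen.

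Alternatives were RLE size factors, DESeq2 1.42.0, no filter on low counts, a minimum of 10 reads in every library, fits of only the groups compared, a replicate block, a cutoff of 1 on the absolute log2 fold change, summed near copies, and leaving out each replicate. Python 3.11.15 with pandas 2.3.3 and matplotlib 3.10.9 was used for annotation and plots.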

Additional observations from a re-analysis of the deposited data

How the results depend on the processing

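Over 17 alternatives, 9 of them leaving out 1 library each, 497 of 503 recomputed values for the 8 genes and the list of 56 kept their direction and their side of the threshold, or for counts lay within 1.5 times the reported count. No log2 fold change of the 8 genes changed sign. The number of listed genes that differed between PVASCs and Ab-ASCs, 28 in the report, was 18 with at least 10 reads in every library and 15 with a cutoff of 1 on the absolute log2 fold change, settings that test or call fewer genes by construction. The 28 split into 17 lower and 11 higher in PVASCs, against 6 and 9 with the cutoff, 13 and 5 with the minimum of 10 reads and 11 and 10 when only these groups were fitted. Leaving out each library gave 8 to 8 of the 8 genes against Sub-ASCs in both comparisons and 6 to 7 between PVASCs and Ab-ASCs, and of the listed genes 37 to 39 for PVASCs against Sub-ASCs, 37 to 40 for Ab-ASCs against Sub-ASCs and 21 to 26 between PVASCs and Ab-ASCs.

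The call of C4b between PVASCs and Ab-ASCs was lost in 3 settings. Its log2 difference was -0.22 when only these groups were fitted (adjusted p = 0.0886) and -0.21 without Ab-ASC replicate 1 (adjusted p = 0.0651), for which the cause was not tested, and at -0.30 it is below the cutoff of 1, as is C1s1 at -0.90. Over all alternatives its adjusted p ranged from 0.00276 to 0.0886, against 0.00484 in the report. The minimum of 10 reads left no value for Cfb and Cfi, and Cfi between PVASCs and Ab-ASCs was not tested when only these groups were fitted. Of all genes called between PVASCs and Ab-ASCs, 43.5% were higher in PVASCs, against 65.6% with the fold cutoff, which left 2551 calls of 9396. With the cutoff, 5328 of 11628 calls were left for PVASCs and 6241 of 12442 for Ab-ASCs against Sub-ASCs.

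Deviations of same-numbered libraries correlated at 0.0226 to 0.0309 for PVASCs and Sub-ASCs, -0.0259 to -0.00871 for PVASCs and Ab-ASCs and -0.0514 to 0.095 for Ab-ASCs and Sub-ASCs. These values cannot tell whether same-numbered libraries share animals or batches, which the sources used here do not give. With the replicate block, 8, 7 and 8 of the 8 genes and 38, 24 and 38 of the listed genes were called in the comparisons of PVASCs with Sub-ASCs, of PVASCs with Ab-ASCs and of Ab-ASCs with Sub-ASCs, and no call was changed among the 8 genes. Depth limits Cfi and Cfb, with 0 to 4 and 2 to 19 reads per library outside Sub-ASCs.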
